A study of Mus musculus with 12 samples.

Results

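The Ifi200 family, also called the p200 family, is a set of interferon-inducible genes that lie side by side on mouse chromosome 1 and were followed here in CD4+ T cells after checkpoint blockade. The 9 genes Ifi203, Ifi204, Ifi206, Ifi208, Ifi209, Ifi211, Ifi213, Mndal and Aim2 were chosen from the annotated cluster, with results of these same libraries across the 4 treatment groups already known, and they are 9 of 56691 mouse gene rows in the count table. No threshold on a measured value was used, so the other annotated genes of the cluster stand in for genes just outside the list. Because the list was drawn up with the data in view, every level and fold change of a member below is a description. The adjusted p-values come from the fit over all 15138 genes tested and are not independent support for the family as a group.

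The cells came from Tg4 Nr4a3-Tocky IL-10 GFP mice, whose CD4+ T cells carry a transgenic receptor for a peptide of myelin basic protein (MBP), whose Nr4a3 gene drives a fluorescent Timer protein and whose Il10 gene drives GFP. Young adult mice of both sexes received 4 mg/kg [4Y]-MBP peptide and, after 24 h, 0.5 mg antibody. Peptide was given again at 0.4 mg/kg 30 min later, and spleens were taken 12 h after that. The antibody was an isotype control pool, anti-PD-L1, anti-Lag3, or both blocking antibodies together (combination blockade, CB), with 3 mice in each group. Every group, the isotype group included, therefore shared the transgenes and both peptide doses, and the model holds 1 receptor specificity. Splenic CD4+ cells positive for both the Blue and the Red form of the Timer (responder cells) were sorted and sequenced from the 3′ end of the transcript. The methods describe a sort in batches of 4, with a different CD4 antibody label for each treatment, and the labels do not say which libraries shared a batch.

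Proteins of this family typically pair a pyrin domain, which binds other pyrin domains, with 1 or more HIN domains, which bind double-stranded DNA. Aim2 is the member whose role is best known: it senses DNA in the cytosol, recruits the adaptor ASC (encoded by Pycard) and activates caspase-1 in an inflammasome. Ifi204 is related to human IFI16 and is linked to DNA sensing through STING, while several other members are nuclear and have been tied to growth control and transcription. Type I and type II interferons induce many of these genes, often through an interferon-stimulated response element (ISRE) close to the start of the gene.

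Against the isotype group, CB-treated responders had lower Ifi209 (0.586-fold), lower Ifi203 (0.736-fold) and higher Ifi211 (10.1-fold), and these were the 3 of 9 members with an adjusted p under 0.05 in edgeR's quasi-likelihood test. The size for Ifi211 is loose, since its log2 fold change of 3.34 ran from 2.77 to 4.45 with 1 library left out. Among all 15138 genes tested, 4.29% passed in that comparison. The remaining 6 members did not pass, and their log2 fold changes ran from -0.82 for Ifi208 to 0.09 for Ifi204. The median log2 fold change of the 9 members was -0.44, beside 0 for all genes. Under either antibody alone no member passed.

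**Figure D1:**
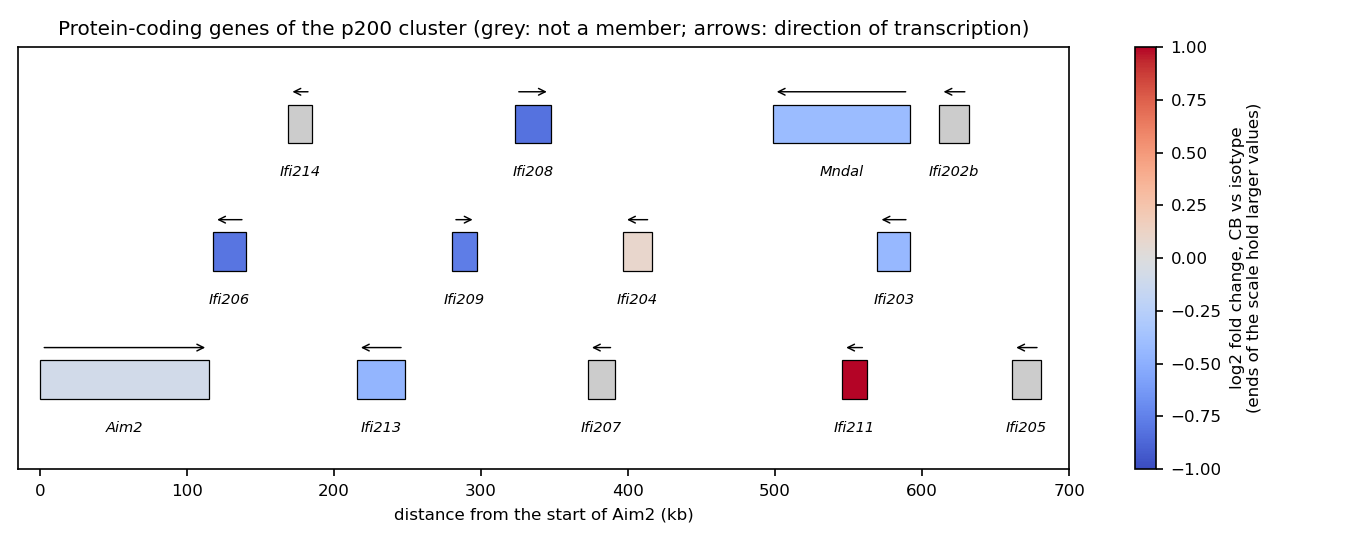
Protein-coding genes of the p200 cluster drawn to scale, as distance in kb from the annotated start of Aim2 on the x axis, with arrows for the direction of transcription and rows used only to keep names apart. Members are coloured by their log2 fold change in CB against isotype on a scale that ends at -1 and 1, and grey boxes are genes outside the list. Ifi211 (3.34) lies inside the annotated span of Mndal (-0.42).

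The 9 members span chr1:173350879-173942672 in GRCm38. The annotation of GENCODE M21 places Aim2 at chr1:173350879-173466040 on the plus strand, Ifi206 at chr1:173468485-173491041 on the minus strand, Ifi213 at chr1:173566283-173599274 on the minus strand and Ifi209 at chr1:173630917-173647928 on the plus strand. Ifi208 follows at chr1:173673675-173698395 on the plus strand, and Ifi204 at chr1:173747293-173766943, Mndal at chr1:173849126-173942491, Ifi211 at chr1:173896345-173913046 and Ifi203 at chr1:173920407-173942672 are all on the minus strand. The span of Mndal thus covers Ifi211 and most of Ifi203, because 1 annotated Mndal transcript begins in the first exon of Ifi203. In exons the overlap was small: 37 bases were shared by Mndal and Ifi203, and 118 by Mndal and the pseudogene Gm38050, which had no read. None of the other 7 members shared an exonic base with any gene.

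Of the members, 8 have an entry in the RefSeq promoter table used here (GRCm38.p6, 250 bases before to 50 after the start), which has none for Ifi204. The ISRE core was searched as GAAA, any 2 bases, GAAA, on both strands, and 6 of these 8 members held it, beside 3.99% of the 27025 genes in the table. By entry it was 7 of the 10 entries of these members, beside 3.44% of all 32851. The windows around it are shown because they show which members carry the same copy of it, with the core in capitals and each window on the strand of its gene. They come from Ifi206 (chr1:173491329-173491378), Ifi208 (chr1:173673587-173673636) and Ifi213 (chr1:173599316-173599365), then from Mndal (chr1:173880194-173880243), Ifi203 (chr1:173942498-173942547) and Ifi211 (chr1:173913054-173913103).
Ifi206: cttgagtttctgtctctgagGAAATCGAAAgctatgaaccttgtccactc
Ifi208: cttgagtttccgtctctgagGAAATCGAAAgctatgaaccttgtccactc
Ifi213: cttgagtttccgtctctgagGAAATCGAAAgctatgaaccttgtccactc
Mndal: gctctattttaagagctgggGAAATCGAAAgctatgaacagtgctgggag
Ifi203: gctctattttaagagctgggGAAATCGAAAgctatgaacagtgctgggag
Ifi211: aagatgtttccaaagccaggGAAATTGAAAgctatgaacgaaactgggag

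Counted from the start of the gene, the core began at -73 in Ifi213, furthest upstream, and at -35 in Ifi203, closest to the start. Mndal has a second entry in the table, for another start, with GAAAGAGAAA on the opposite strand. Ifi203 also has a second entry, which holds no core. The 50-base windows of Ifi208 and Ifi213 were identical, and Ifi206 differed from either at 1 base. Those of Mndal and Ifi203 were identical too, although the 2 windows lie at separate starts. Ifi211, the member that was higher under CB, carried GAAATTGAAA where the other 5 carried GAAATCGAAA, and its window was closest to that of Ifi205, a cluster gene outside the list, with 4 of 50 bases different. GAAATCGAAA was found in 0.0487% of all promoter entries (16 of 32851) and GAAATTGAAA in 0.116% (38 of 32851).

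Ifi209 and Aim2 had no match to the ISRE core in their windows. The Aim2 window (chr1:173420354-173420653) lies far downstream of the annotated gene start given above (chr1:173350879). Sequence at that annotated start was not searched. For Ifi209 the closest stretch to GAAATCGAAA is shown, at chr1:173630760-173630809, with the aligned bases in capitals. It began at -79 from the start, as did the GAAATCGAAA of Ifi214, a cluster gene outside the list. How far its surroundings matched the windows above was not computed.
Ifi209: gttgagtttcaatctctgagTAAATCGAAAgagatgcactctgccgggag
Counted from 1 at the first base of the core, the single difference was G1T. The closest stretch in Aim2 differed from GAAATCGAAA at 4 of its bases. The gamma-activated site, searched as TTCNNNGAA, was absent from the windows of all 8 members and present in 8.3% of all promoter entries. These matches describe letters in a window and say nothing of which factor was bound in these cells.

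How far reads of the members can be told apart limits every value below. The count table holds uniquely mapped reads, per the study's methods, so a read that lies wholly in sequence common to 2 genes would not be counted for either. In the last 500 transcribed bases of the longest coding transcript, where these 3′ reads fall, 77.4% of the 50-base words of Ifi211 also occurred at the 3′ end of Ifi205, and 20.2% at that of Mndal. Of the words of Ifi209, 63.4% occurred in Ifi214, a cluster gene outside the list. The other members shared less: 21.95% for Mndal (Ifi205 and Ifi211), 12.6% for both Ifi208 and Ifi213 (with each other), 11.5% for Ifi206 (Gm18752), 2.22% for Ifi204, 1.77% for Aim2 and 0% for Ifi203. With 30-base words in the last 1000 bases, shares were 41.8% for Ifi206, 40.5% for Mndal, 33.3% for Ifi208 and 32.9% for Ifi213. They were then 23.8% for Ifi204, 10.6% for Aim2, 85.9% for Ifi211, 63.2% for Ifi209 and 0% for Ifi203. Of the 3 members that passed the test, Ifi211 and Ifi209 therefore had the highest shares and Ifi203 the lowest. The 0% covers only the longest Ifi203 transcript. In that wider setting 5.25% of the words of Ifi204 occurred at the 3′ end of an Ifi203 transcript.

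**Figure D2:**
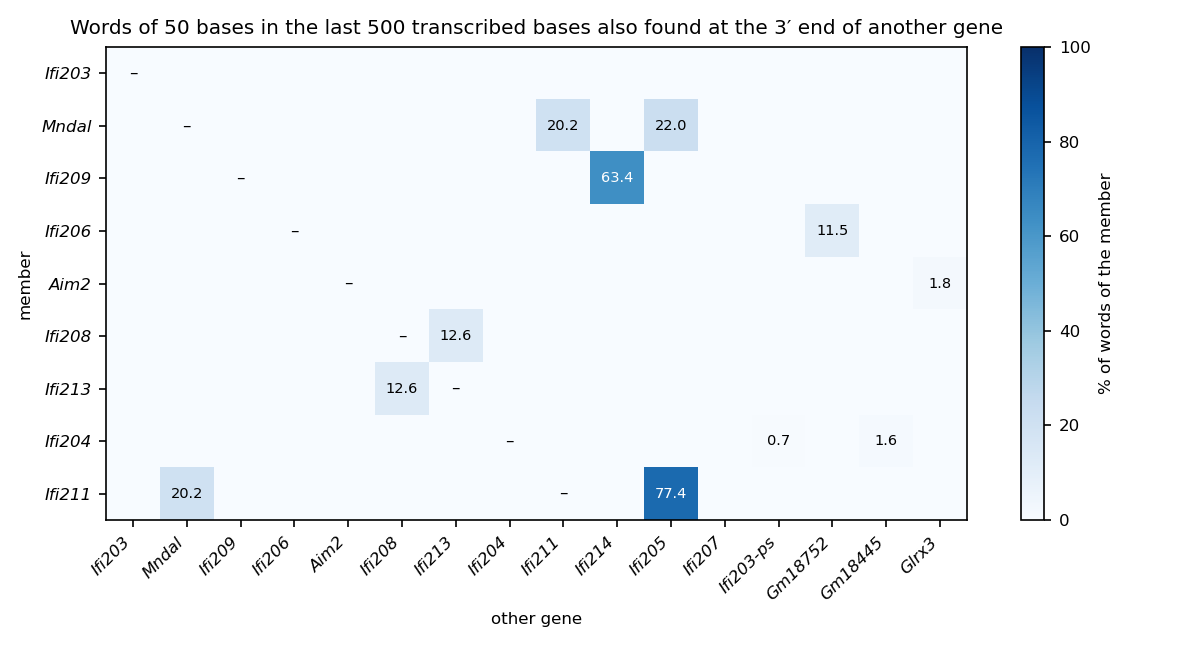
Share of the 50-base words in the last 500 transcribed bases of each member (rows) that also occur in the last 500 bases of a transcript of another gene (columns), in % of the words of the member; blank cells are 0 and dashes mark the gene itself. The highest shares are 77.4% for Ifi211 with Ifi205 and 63.4% for Ifi209 with Ifi214.

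The partner genes had low counts of uniquely mapped reads, which leave out reads lying wholly in shared sequence. Over all 12 libraries Ifi205 had 19 reads against 1090 for Ifi211, and Ifi214 had 1310 reads against 17568 for Ifi209. Ifi214 was tested and did not pass in CB against isotype (log2 fold change -0.81, SE 0.66, adjusted p = 0.63). Adding the reads of Ifi214 to Ifi209 before the fit gave a log2 fold change of -0.77 (adjusted p = 0.0161), and adding those of Ifi205 to Ifi211 gave 3.35 (adjusted p = 0.0210). Ifi203 and Mndal added together gave -0.43, with an adjusted p of 0.0536. Such sums do not restore reads of shared sequence, which were counted for neither gene. With so few reads in Ifi205 and Ifi214, the sums could move little. They therefore cannot show whether read sharing altered these changes.

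The 12 libraries held 16449370 to 22151025 reads on genes (median 19176439). Between 14.3% and 21.9% of the reads of a library lay on 1 gene row. The members drew 792 (Ifi204) to 54862 (Ifi203) reads in all, and all 9 passed the filter of 30 reads summed over the 12 libraries. Levels are given in CPM, counts scaled to a common library size after TMM adjustment. A CPM value is not divided by transcript length, since a 3′ library reads about 1 site of a transcript whatever its length. In a bulk sample, fewer cells of a type and less RNA per cell cannot be told apart.

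In the isotype group the mean level ran from Ifi203 (254 CPM ± 23.7, SD, n = 3) and Mndal (215 ± 44.3) through Ifi209 (91.7 ± 14.9) to Ifi206 (29.2 ± 6.75), Aim2 (27.3 ± 2.99), Ifi208 (23.3 ± 4.01) and Ifi213 (15.9 ± 3.75), with Ifi204 (3.00 ± 2.33) and Ifi211 (0.937 ± 0.984) lowest. The ranges of Ifi203 and Mndal overlapped. So did those of Ifi206 with Aim2, of Aim2 with Ifi208, of Ifi208 with Ifi213 and of Ifi204 with Ifi211. Ifi209 stood clear of its neighbours on both sides, and Ifi213 stood clear of Ifi204. Ifi203 and Mndal together gave 72.2% of the reads of the 9 genes over all libraries (39.3% and 32.9%). Summed over the 9 genes, the level was 661 CPM ± 60.5 in the isotype group, 606 ± 65.1 with anti-PD-L1, 661 ± 86.5 with anti-Lag3 and 481 ± 75.0 in CB (SD, n = 3 each). The CB libraries (426 to 567 CPM) all lay under the isotype libraries (591 to 699 CPM).

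**Figure D3:**
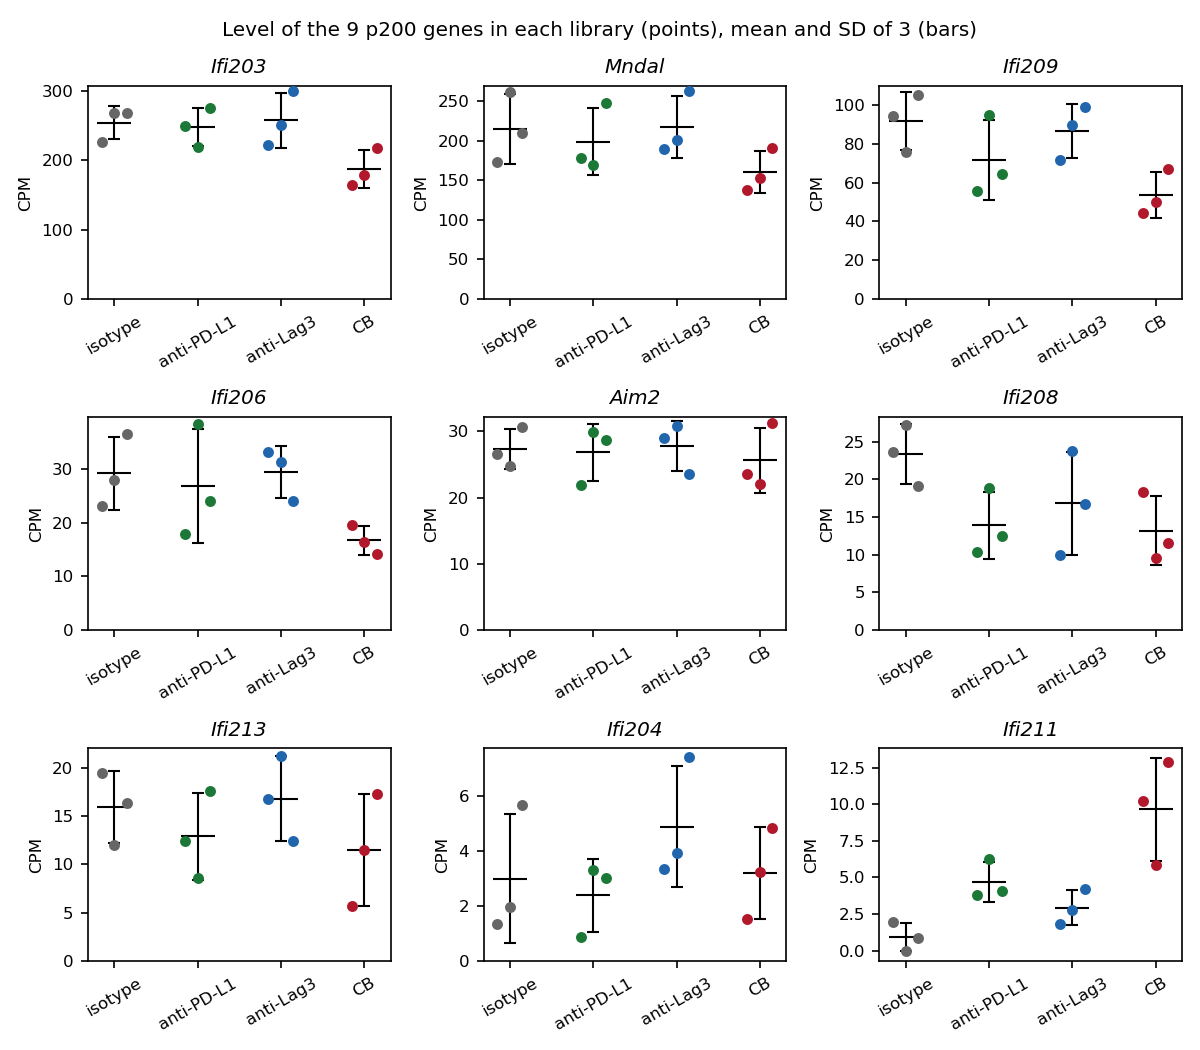
Level of each member in CPM in the 12 libraries, with 1 panel a gene. The y axis starts at 0 CPM, or under 0 where a bar reaches below it, as for Ifi211. Points are libraries in replicate order, and bars give the mean and SD of the 3 libraries of a group. The CB points lie under all isotype points for Ifi203, Ifi209, Ifi206 and Ifi208, and above them for Ifi211.

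Aim2, the inflammasome sensor, read 26.6, 24.8 and 30.6 CPM in the isotype libraries and 23.6, 22.1 and 31.3 CPM in the CB libraries. With anti-PD-L1 it read 21.9, 29.9 and 28.6 CPM, and with anti-Lag3 29.1, 30.9 and 23.6 CPM. All 4 groups overlapped. The log2 fold change in CB against isotype was -0.09 (SE 0.23, adjusted p = 0.95).

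Ifi204, the member tied to STING signalling, was read at 15 to 141 reads a library. Its levels were 1.36, 1.96 and 5.67 CPM with isotype and 1.52, 3.22 and 4.84 CPM with CB, and groups overlapped in every comparison against isotype. The log2 fold change of 0.09 had an SE of 0.82. At a similar SE (0.84), Ifi211 had a log2 fold change of 2.31 with anti-PD-L1 and did not pass. Changes of several fold in Ifi204 could therefore be missed at this depth.

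Ifi203 was the most abundant member and is a nuclear protein of the family. Its levels were 227, 268 and 268 CPM in the isotype libraries, 249.2, 220 and 276 CPM with anti-PD-L1, 223, 250 and 300 CPM with anti-Lag3, and 165, 180 and 218 CPM in CB. The highest CB library lay under the lowest library of each of the other groups. The log2 fold change in CB against isotype was -0.44 (SE 0.13, adjusted p = 0.0403, edgeR), and with either antibody alone it was -0.03 (anti-PD-L1, SE 0.13) and 0.02 (anti-Lag3, SE 0.13). The call rests on single libraries: the adjusted p was 0.156 without isotype library 2, 0.127 without isotype library 3, 0.203 without CB library 1, 0.129 without CB library 2 and 0.0501 without anti-Lag3 library 2. Tested against a log2 fold change of 0.2 instead of 0, it did not pass (adjusted p = 0.185, edgeR).

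Mndal, a nuclear member whose product has been tied to growth inhibition, read 174, 262 and 210 CPM with isotype, 179, 170 and 248 CPM with anti-PD-L1, 189, 201 and 263 CPM with anti-Lag3 and 138, 153 and 190 CPM with CB. The top CB library lay above the lowest isotype library. The log2 fold change in CB against isotype was -0.42 (SE 0.16) and did not pass (adjusted p = 0.156). It passed with no filter on low counts (adjusted p = 0.0180) and with the replicate number as a block (0.0191). Across the 12 libraries the log2 CPM of Mndal and Ifi203 had a Pearson r of 0.91, and 0.90 after each group's mean was removed. Those 12 points share the treatment groups. An annotated Mndal transcript begins in the first exon of Ifi203, as described above. The Ifi203 window shown (chr1:173942498-173942547) lies just upstream of that Mndal start (chr1:173942491), and the Mndal window shown lies at another start. The part of this in the correlation was not tested. No other pair of members exceeded 0.68 over the 12 libraries (Ifi206 with Ifi209).

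Ifi209 showed the lowest adjusted p of the members. It was at 94.2, 75.6 and 105 CPM in the isotype libraries, 55.6, 95.1 and 64.7 CPM with anti-PD-L1, 71.5, 89.7 and 98.8 CPM with anti-Lag3, and 44.2, 50.2 and 66.8 CPM with CB. All CB libraries lay under all isotype and all anti-Lag3 libraries, and the anti-PD-L1 libraries overlapped with both. In CB against isotype the log2 fold change was -0.77 (SE 0.19, adjusted p = 0.0145, edgeR), beside -0.35 (SE 0.19) for anti-PD-L1 and -0.08 (SE 0.19) for anti-Lag3. Leaving out a library raised the adjusted p to 0.0525 (isotype library 1), 0.0759 (isotype library 3), 0.0969 (CB library 1) and 0.0697 (CB library 2).

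Ifi206 read 23.1, 28.0 and 36.5 CPM with isotype and 19.5, 16.4 and 14.2 CPM with CB, which did not overlap. With anti-PD-L1 it spread from 17.8 to 38.5 CPM and with anti-Lag3 from 24.0 to 33.2 CPM. Its log2 fold change of -0.81 in CB against isotype (SE 0.27) did not pass (adjusted p = 0.101), and did so with no filter on low counts (adjusted p = 0.0419).

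Ifi208 and Ifi213 share the promoter window shown above. Ifi208 read 23.7, 27.2 and 19.2 CPM with isotype, 10.3, 18.8 and 12.5 CPM with anti-PD-L1, 10.02, 23.7 and 16.8 CPM with anti-Lag3, and 18.3, 9.62 and 11.6 CPM with CB. Isotype lay above anti-PD-L1 and above CB without overlap. The log2 fold changes were -0.75 (SE 0.34, adjusted p = 0.59) for anti-PD-L1 and -0.82 (SE 0.34, adjusted p = 0.209) for CB, so neither passed. Ifi213 read 19.4, 12.0 and 16.4 CPM with isotype and 5.71, 11.5 and 17.3 CPM with CB, with overlap, and its log2 fold change was -0.47 (SE 0.37, adjusted p = 0.61). The reads of both genes added together gave -0.67 (SE 0.23, adjusted p = 0.107). Whether the 2 genes differed in their change was not tested.

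Ifi211 was the only member with a higher call. The isotype libraries held 39, 0 and 16 reads, or 1.96, 0 and 0.847 CPM, and a count of 0 in isotype library 2 allows up to 0.190 CPM (3 reads). With anti-PD-L1 there were 65, 112 and 90 reads (3.77, 6.28 and 4.10 CPM), with anti-Lag3 36, 56 and 80 reads (1.82, 2.77 and 4.20 CPM), and with CB 195, 122 and 279 reads (10.2, 5.87 and 12.9 CPM). All anti-PD-L1 and all CB libraries lay above all isotype libraries, and the anti-Lag3 libraries overlapped with isotype. In CB against isotype the log2 fold change was 3.34 (SE 0.87, adjusted p = 0.0230, edgeR), beside 2.31 (SE 0.84, adjusted p = 0.49) for anti-PD-L1 and 1.62 (SE 0.83, adjusted p = 0.81) for anti-Lag3. The log2 fold change was 2.77 without isotype library 2, the one with no read, and 4.45 without isotype library 1. The adjusted p was 0.0705 without isotype library 3, 0.0719 without CB library 1 and 0.124 without CB library 3. Its share of the reads of the 9 genes was 0.153% in the isotype group and 2.00% in CB. Libraries had 18 cycles of amplification and no molecular identifiers, so reads at this level are not independent molecules, and the floor above covers counting error only.

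**Figure D4:**
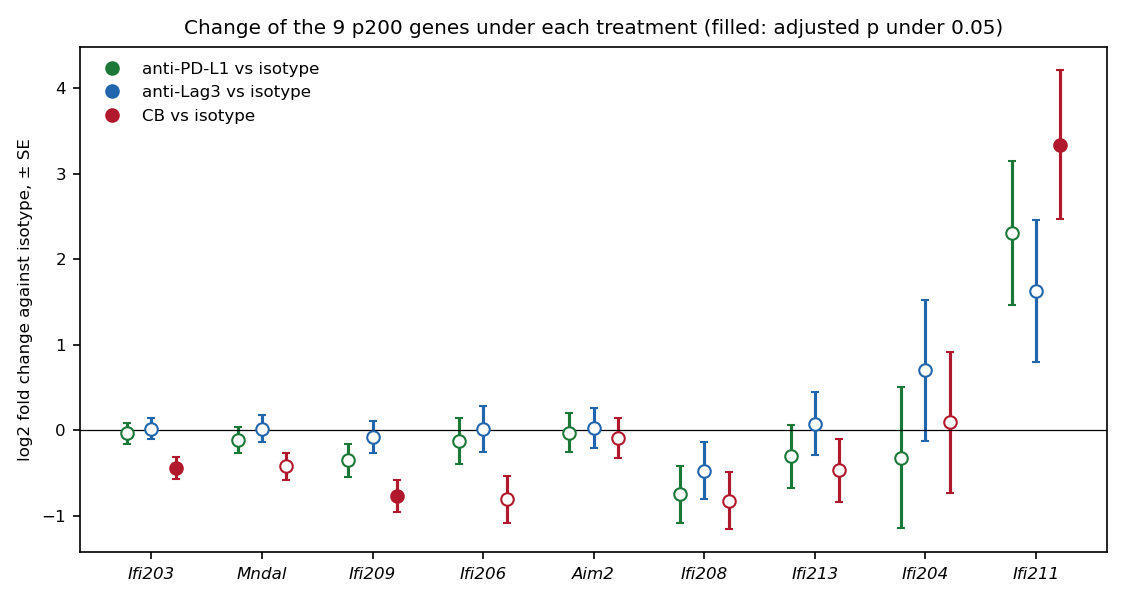
Log2 fold change against isotype (y axis, with SE as bars) of the 9 members (x axis) for anti-PD-L1, anti-Lag3 and CB; filled points have an adjusted p under 0.05 in edgeR. Only Ifi203 (-0.44), Ifi209 (-0.77) and Ifi211 (3.34) are filled, all for CB.

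In CB against isotype, 5 of 9 members had group ranges that did not overlap (Ifi211 higher; Ifi203, Ifi206, Ifi208 and Ifi209 lower), beside 20% of all genes tested. In anti-PD-L1 against isotype, 2 of 9 members did not overlap (Ifi211 higher, Ifi208 lower), beside 11.8% of all genes. In anti-Lag3 against isotype it was 0 of 9, beside 10.1%. No member passed edgeR's test in anti-PD-L1 against isotype, where 0.033% of all genes did, and DESeq2 called 0 members as well. Ifi208 and Ifi211 had an unadjusted p under 0.05, as did 7.84% of all genes. In anti-Lag3 against isotype 0% of all genes passed, and 0 members had an unadjusted p under 0.05, beside 5.21% of all genes.

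Setting CB against each single antibody asks what the second antibody added. In CB against anti-Lag3 no member passed, beside 0.694% of all genes, and 5 members had an unadjusted p under 0.05, beside 9.46% of all genes. Ifi203 (log2 fold change -0.46, SE 0.13, adjusted p = 0.0893) and Ifi209 (-0.69, SE 0.19, adjusted p = 0.0911) came closest, and DESeq2's Wald test called both (adjusted p = 0.0145 and 0.0329). The shares of all genes given here are those of edgeR. The share that DESeq2 called was not counted, so its calls are not read as a result about the members. DESeq2 gave no adjusted p for Ifi204, Ifi208, Ifi211 and Ifi213 in either comparison of CB with a single antibody. In CB against anti-PD-L1 no member passed, beside 0.37% of all genes, and 0 members were called by DESeq2 among those it adjusted. An unadjusted p under 0.05 was seen for 3 members and for 9.08% of all genes. There Ifi203 had a log2 fold change of -0.41 (SE 0.13, adjusted p = 0.214) and its ranges did not overlap. With the replicate number as a block, edgeR called Ifi203 against anti-PD-L1 (adjusted p = 0.0360), and Ifi203 (0.0107), Ifi209 (0.0165) and Mndal against anti-Lag3. Both comparisons share the CB libraries with CB against isotype, so their values are not separate evidence.

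The interaction, CB minus both single-antibody groups plus isotype, asks whether the combination differed from the sum of its parts on the log2 scale. In edgeR it passed for 0% of all genes and for no member, and DESeq2 called no member. Ifi203 alone of the members had an unadjusted p under 0.05 (interaction -0.43, SE 0.18, adjusted p = 0.80), beside 5.93% of all genes, while that of Ifi211 was -0.59 with an SE of 1.13.

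The genes that work with these sensors were read from a list of 36 DNA-sensing and inflammasome genes, of which 30 were tested. In CB against isotype 1 of these 30 passed, beside 4.29% of all genes tested. It was Pycard, the adaptor that Aim2 recruits, at 176 CPM ± 7.81 with isotype and 124 ± 13.2 with CB (SD, n = 3). Its log2 fold change was -0.50 (SE 0.13, adjusted p = 0.0245, edgeR). The call was lost without any 1 isotype library, CB library 1 or CB library 2 (adjusted p = 0.0531 to 0.127) and in the test against 0.2 (0.110, edgeR). Casp1, the protease of the inflammasome, was read at 2.71 CPM ± 1.46 and 1.96 ± 0.218 (log2 fold change -0.47, SE 0.88). Cgas, which makes the messenger that STING binds, had 9.96 CPM ± 2.59 and 15.8 ± 6.22 (0.67, SE 0.38, adjusted p = 0.41). The gene of STING itself, listed as Tmem173, had 112 CPM ± 7.21 and 112 ± 9.33 (-0.01, SE 0.13). The median of the 30 genes was 0.03, and 0 of them passed under either antibody alone.

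Upstream of the family, 22 genes of interferon and its signalling had 19 tested. Of these, 2 passed in CB against isotype, beside 4.29% of all genes. Ifnar1, a chain of the type I interferon receptor, fell (log2 fold change -0.88, SE 0.24, adjusted p = 0.0332), from 33.4 CPM ± 1.39 to 18.1 ± 2.30. Without any 1 isotype library, CB library 1 or CB library 3 it did not pass (adjusted p = 0.0713 to 0.149, edgeR). Irf8, a transcription factor of the interferon regulatory family, rose from 64.9 CPM ± 6.42 to 141 ± 34.4 (1.11, SE 0.16, adjusted p = 6.8e-05, edgeR). The paper counts Irf8 among the genes tied to strong T cell receptor signalling. Irf7, another factor of that family, had 24.5 CPM ± 5.12 and 21.3 ± 3.45 (-0.20, SE 0.24, adjusted p = 0.80). Ifng, the type II interferon, was at 3.20 CPM ± 2.54 and 3.79 ± 1.63, with an SE of 1.20 on its log2 fold change of 0.25. No gene of this list passed under either antibody alone.

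Other interferon-stimulated genes held more higher than lower calls. Of 48 listed genes, 47 were tested. In CB against isotype 8 passed as higher and 2 as lower, beside 4.29% of all genes in either direction. The median log2 fold change over the 47 was 0.45. The 5 higher genes with the smallest adjusted p were Igtp (0.94, SE 0.14), Isg15 (1.30, SE 0.20), Ly6a (0.50, SE 0.09), Bst2 (1.13, SE 0.21) and Gbp2 (1.44, SE 0.28). They encode an immunity-related GTPase, a ubiquitin-like modifier, a surface antigen of T cells, a tether of budding viruses and a guanylate-binding protein. The 2 lower genes were Ly6e (-0.40, SE 0.10), also a surface antigen, and Sp100 (-0.42, SE 0.12), a nuclear body protein. With anti-PD-L1 alone 1 of 47 passed, beside 0.033% of all genes, with a median of 0.36. It was Ly6a (log2 fold change 0.53, SE 0.09, adjusted p = 0.0142, edgeR), and 0 passed without isotype library 1 or 2 or anti-PD-L1 library 2. With anti-Lag3 alone 0 of 47 passed in edgeR and 1 in DESeq2, whose share over all genes was not counted, with a median of 0.41. These comparisons share the isotype libraries.

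**Figure D5:**
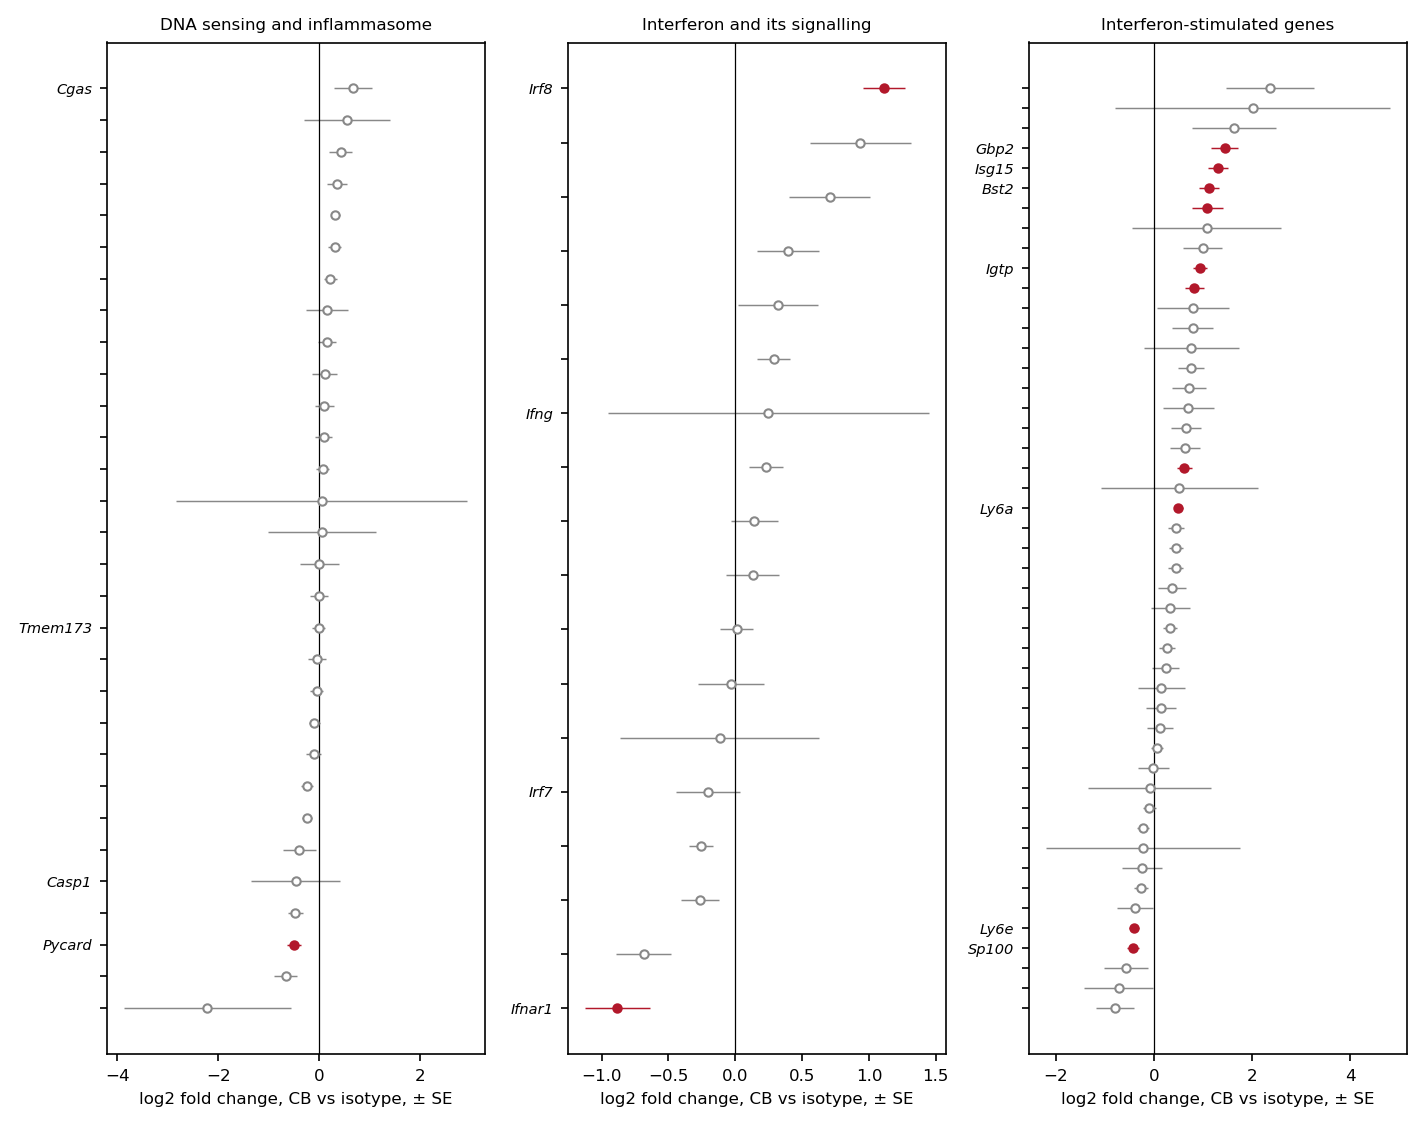
Log2 fold change in CB against isotype (x axis, bars are SE) of tested genes of the lists of DNA sensing and inflammasome (30), interferon and its signalling (18 of 19) and interferon-stimulated genes (47), ordered by value on the y axis, with names for the genes described in the text; filled red points have an adjusted p under 0.05. One filled point lies in the first panel (Pycard), 2 in the second (Irf8 higher, Ifnar1 lower) and 10 in the third, 8 of them higher.

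The sorted population was checked against cell type markers. All 10 CD4 T cell markers were read in every group, and their summed level was 3579 to 3676 CPM with isotype and 3098 to 3243 CPM with CB, which did not overlap. Cd4 (log2 fold change -0.50), Thy1 (-0.48) and Cd3e (-0.39) were each called lower in CB. Of the 14 myeloid markers, a cell type in which p200 genes are also expressed, 3 had no read with isotype and 4 had none with CB. Cd14 had no read in any library, and the myeloid sum was 68.7 to 80.2 CPM with isotype and 56.2 to 72.1 CPM with CB. Most of that sum was Cst3 (mean 57.1 and 52.6 CPM). The 8 B cell markers summed to 365 to 430 CPM with isotype and 330 to 407 CPM with CB, nearly all of it Ighm (mean 376 and 344 CPM), while each of the other 7 had a mean of at most 5.46 CPM in these groups. The 8 dendritic cell markers summed to 11.4 to 33.7 CPM and 7.81 to 21.8 CPM. The 4 erythroid markers summed to 158 to 307 CPM with isotype and 113 to 145 CPM with CB, with no overlap, and Hbb-bs was called lower (log2 fold change -0.75). The 6 NK cell markers summed to 40.1 to 59.1 CPM with isotype and 26.5 to 40.2 CPM with CB, and Gzma was called lower (log2 fold change -1.49). The part of these shifts in the values of the members was not tested. The 2 CD8 T cell markers summed to 40.9 to 45.3 CPM with isotype and 25.05 to 33.2 CPM with CB. Nearly all of that was Cd8b1 (mean 42.0 and 29.7 CPM), beside 0.772 and 0.402 CPM for Cd8a. The 3 platelet markers summed to at most 3.31 CPM in any library.

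The profile of the family was taken as the mean of the standardised log2 CPM of the 9 members over the 12 libraries. Of 15129 other genes tested, those with the highest Pearson r with this profile were Nagk (0.90), Myo1f (0.89), Grb7 (0.88), Emc9 (0.88) and Pglyrp1 (0.85). Those with the lowest were Psmd3 (-0.92), Gm23502 (-0.91), Rpl26-ps4 (-0.89), Pgam1 (-0.88) and Gm8317 (-0.87). On the deposited rlog values of 10439 genes, Nagk and Psmd3 again came first at their end, while Myo1f was placed 31 from the top and Gm23502, Rpl26-ps4 and Gm8317 had no value. The points share the treatment groups and the libraries, so these values are a description of likeness only.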

How the data were processed

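Counts were deposited as raw reads per gene: the authors trimmed the 3′ mRNA reads with Cutadapt 1.18, mapped them to GRCm38 with STAR 2.6.1a and counted uniquely mapped reads with featureCounts 1.6.4. The annotation release and the strand setting were not given in the sources used here. The log2 values that the authors deposited were regularised-log (rlog) values from DESeq2, used here only for gene likeness. Ensembl identifiers were named through GENCODE M21. The members and lists were chosen with earlier results of these data known. Genes with at least 30 reads over 12 libraries were fitted with edgeR 4.0.16 (TMM, quasi-likelihood test, 4 group means, all 12 libraries), with Benjamini-Hochberg adjustment over 15138 genes and a threshold of 0.05. DESeq2 1.42.0 was an alternative. The fits were tested on simulated data first. Log2 CPM used a prior count of 2, and fold changes one of 0.125. SE was the log2 fold change divided by the square root of F. Cells were sorted in batches of 4, per the methods, and the labels tie no library to a batch. Nothing states that samples of a group came from separate litters or days. Named genes outside the family were those called in a list against isotype (at most 5 a list and direction), Pycard, Casp1, Cgas, Sting1 (Tmem173), Irf7 and Ifng, other cluster genes, and 5 at each end of likeness. One further gene under this rule is not reported here. Alternatives were a blocked fit by replicate number, fits of just the libraries in a comparison or without each library in turn, other filters (none, filterByExpr), DESeq2 size factors, tests against a log2 fold change of 0.2 and, chosen after the data were seen, summed pairs of paralogues.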

Additional observations from a re-analysis of the deposited data

Results flagged for a closer look

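Some cluster genes outside the list had reads where the isotype libraries had none. Ifi207 had 17 reads in anti-PD-L1 library 1, 11 in anti-Lag3 library 2, 2 in anti-Lag3 library 3 and none in the isotype and CB groups. Ifi205 had 16 reads in anti-PD-L1 library 1 and at most 1 in any other library. Ifi207 was tested in anti-PD-L1 against isotype and did not pass in edgeR (adjusted p = 0.60), and Ifi205 was under the filter and was not tested.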

How the results depend on the processing

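In CB against isotype, 3 members were called, 1 when DESeq2 tested against 0.2 on the log2 scale and 5 with no filter on low counts. Leaving out 1 library gave 0 to 3 called members, with 0 without isotype library 3 or CB library 1, and 1 without CB library 2. The members called in CB against anti-PD-L1 numbered 0, and 1 (Ifi203) in the blocked fit. In CB against anti-Lag3, 0 were called, 2 with DESeq2's test against 0, 3 with no filter on low counts and 3 in the blocked fit. Member counts in anti-PD-L1 or anti-Lag3 against isotype and in the interaction stayed at 0 in all alternatives run. Calls over all genes are given below for the blocked fit only. The other counts here, and those of the lists, have no such share beside them. A change in them is therefore not read as a result about the members or lists.

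For DNA sensing in CB against isotype, 1 gene was called, 0 with either test against 0.2, 2 with DESeq2 against 0 and 2 in the blocked fit, and 0 to 2 with 1 library left out (0 without any 1 isotype library, CB library 1 or CB library 2; 2 without CB library 3). For interferon signalling 2 were called, 1 with either test against 0.2 and 4 with DESeq2 against 0, and 1 to 3 with 1 library left out (1 without any 1 isotype library, CB library 1 or CB library 3). For interferon-stimulated genes 10 were called, 5 with DESeq2 against 0.2, and 6 to 10 with 1 library left out (6 without CB library 3). In anti-PD-L1 against isotype that list had 1 call, 0 with either test against 0.2 or with only those groups fitted, 2 with DESeq2 against 0, 3 with no filter, 3 in the blocked fit, and 0 to 1 with 1 library left out (0 without isotype library 1 or 2 or anti-PD-L1 library 2). In anti-Lag3 against isotype it had 0 calls, 1 with DESeq2 against 0, 2 with no filter and 2 in the blocked fit. The causes were not tested.

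Among the uncalled log2 fold changes of members printed above, signs changed only when 1 library was left out. Changes of members not printed above are not covered here. With anti-PD-L1, Ifi203 ran from -0.12 to 0.0452. With anti-Lag3, Ifi203 ran from -0.10 to 0.11 and Ifi209 from -0.20 to 0.0399. In CB against isotype, Ifi204 ran from -0.34 to 0.94 and Aim2 from -0.26 to 0.00796. Over the alternatives in CB against isotype, the 3 called members kept their direction, with log2 fold changes with 1 library left out of -0.56 to -0.36 (Ifi203), -0.96 to -0.65 (Ifi209) and 2.77 to 4.45 (Ifi211).

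No source ties the replicate numbers to sort batches, and the data gave a partial pairing that was not seen in every pair. Deviations from the group means correlated at -0.04 to 0.05 for the 18 same-numbered pairs and at -0.07 to 0.04 for the other 36, and in 18 of 36 choices the best match of a library in another group had its own number, beside 12 if matches fell evenly. Over the 8631 genes with a mean of at least 100 reads, a check added after the data were seen, the ranges were -0.05 to 0.18 (7 of 18 over 0.1) and -0.19 to 0.12, with 24 of 36 best matches. With a replicate block, calls over all genes in CB against isotype went from 649 to 843 and members called from 3 to 4, with Mndal added (adjusted p = 0.0191). Over all genes the block moved the calls from 5 to 23 in anti-PD-L1 against isotype, 0 to 9 in anti-Lag3 against isotype, 56 to 137 in CB against anti-PD-L1, 105 to 208 in CB against anti-Lag3 and 0 to 4 in the interaction. Depth limits Ifi204 and Ifi211 most, since a single library of Ifi204 could hold 15 reads and one of Ifi211 none. With 3 libraries a group, a p that missed the threshold does not show equal levels. Summing paralogues was chosen after the data were seen.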
